A study of Homo sapiens with 4 samples.

Results

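The members described here are the cyclins, the cyclin-dependent kinases (CDKs), the CDK inhibitors, the E2F and DP transcription factors and the pocket proteins of the RB family. They were chosen by gene symbol in the platform annotation: CCN followed by 1 letter and an optional digit, CDK followed by digits only, CDKN1A to CDKN1C, CDKN2A to CDKN2D, CDKN3, E2F1 to E2F8, RB1, RBL1, RBL2, TFDP1 and TFDP2. Of 19775 genes on the array, 64 were members, with 165 probe sets among them. A further 2 probe sets carried a matching symbol together with a second symbol and were not assigned. Each gene was represented by its brightest probe set, the one with the highest mean log2 signal over the arrays.

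The series compared U937 cells carrying shPIR#7, a short hairpin against PIR in the pSICO-R lentiviral vector, with U937 cells carrying the empty pSICO-R vector. U937 is a human myelomonocytic cell line from a histiocytic lymphoma, and pirin, the product of PIR, is a nuclear protein that binds iron. Total RNA from 3 extractions was mixed into 1 pool for each cell line, and each labelled pool was hybridised to 2 Affymetrix HG-U133 Plus v.2 arrays, so the data comprise 4 arrays from 2 pools. The knock-down thus rests on 1 hairpin and 1 RNA pool. Arrays of the same pool show the error of hybridisation only, not that of separate cultures, and no p-value can be given for the knock-down. The lentiviral vector is present in both lines. Whether either line was a clone is not given in the sources used here.

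Cyclins are the regulatory partners that switch on the CDKs. D cyclins with CDK4 or CDK6, and then E cyclins with CDK2, phosphorylate the pocket proteins and so release E2F factors, which drive genes for DNA synthesis. A cyclins act in S phase and B cyclins with CDK1 in mitosis, and these mitotic genes are transcribed late in the cycle under B-MYB and FOXM1. Inhibitors of the INK4 family block CDK4 and CDK6, inhibitors of the CIP/KIP family act on the later CDK complexes, and several CDKs and cyclins outside the cycle control transcription by RNA polymerase II. In myeloid cells, leaving the cycle usually accompanies maturation.

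PIR itself read 83.4 and 91.5 in the knock-down pool against 1813 and 1882 with empty vector, a log2 difference of -4.14. The labelled cell type was checked against its markers: of 9 with a probe set, 7 were measured, among them LYZ, ELANE, SPI1 and PTPRC, and MPO and FCGR1A were not. Of 13 markers of T cells, B cells, fibroblasts, epithelium and erythroid cells with a probe set, 2 were measured, CD79A and COL1A1. The 3' to 5' signal ratio of GAPDH was between 0.959 and 1.02 and that of ACTB between 1.17 and 1.18 on the 4 arrays, so this measure of RNA integrity did not separate the pools.

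Signals are on a linear scale that the authors brought to a common trimmed mean on every array. Differences given here are knock-down minus empty vector on the scale log2(signal + 18.4). The constant 18.4 is the 25th percentile of signal, averaged over arrays, and because it is added, folds of dim genes come out too small. A gene counted as measured if a pool had both arrays at or above their 60th percentile of signal, 117 to 126 units. By this limit 56 of the 64 members and 10282 of all genes were measured. A gene was at least 1.5-fold (or 2-fold) apart when the pool means differed by that much and all 4 array-by-array differences reached at least 50% of it on the log2 scale in the same direction; both arrays of the brighter pool had to reach the brightness limit. Over the measured members the 2 arrays of a pool had a median SD (log2) of 0.067 in the knock-down and 0.046 in the empty vector.

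The members did not differ in 1 direction. Of the 9 measured cyclins of the cell cycle, 5 were lower in the knock-down pool at 1.5-fold and the other 4 missed the rule. No pocket protein, E2F or DP factor or transcriptional cyclin was 1.5-fold apart on its brightest probe set. At 1.5-fold, 6 of the 56 measured members were lower, CCNA1, CCNA2, CCNB1, CCNB2, CCNF and CDKN2D, where 4.93% of all measured genes were lower by the same rule. CDK16 and CDK18 were the 2 members that were higher, against a background of 8.51%. Of the 6 lower members, 5 were cyclins of the cell cycle. At 2-fold CCNF alone was lower, against 1.08% of all measured genes, and no member was higher, against 2.43%; no test stands behind these counts. With arrays scaled to a common median, 3 members were lower, CCNA1, CCNF and CDKN2D, and the same 2 were higher.

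The median difference over the 56 measured members was -0.10, and that over all measured genes 0.046. Scaling the arrays to a common median moved the median of all measured genes to 0.17 and that of the members to 0.021, so its sign changed, but the members stayed below all genes, by -0.15 under either scaling. On 28 members both knock-down arrays read below both empty-vector arrays, against a background of 31.2%, and on 14 both read above, against 40.9%. For the other 14 the array-by-array differences had both signs. Pools without overlap were thus common among all measured genes, and non-overlap of a member, given below, does not set it apart. In 34 members the difference was smaller than 0.3 in size.

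**Figure D1:**
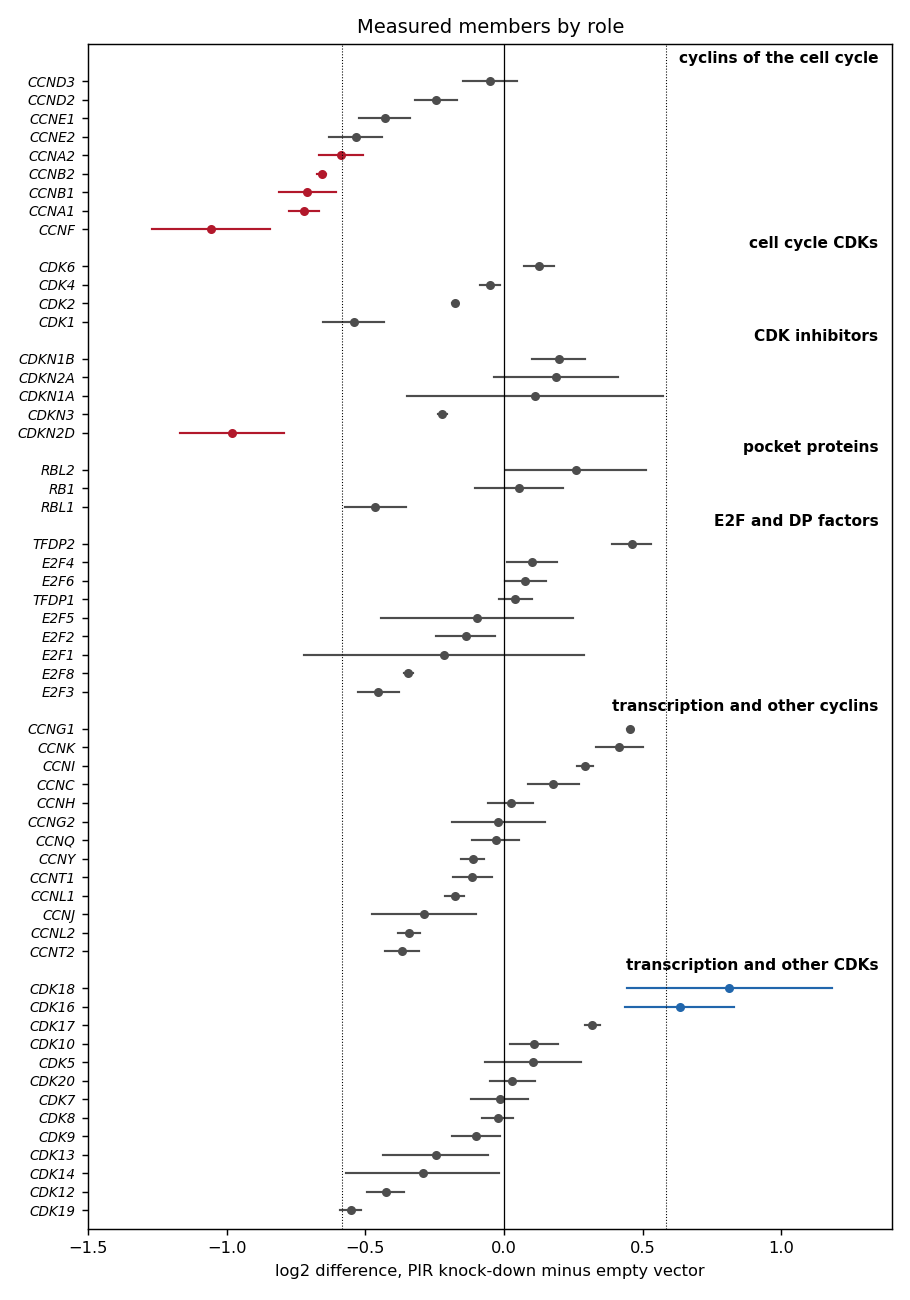
Log2 difference (knock-down minus empty vector) of the 56 measured members by role; points are differences of pool means, lines span the 4 array-by-array differences, and dotted lines mark 1.5-fold. Red points are the 6 members lower and blue points the 2 members higher at 1.5-fold. On their brightest probe sets all 9 cell cycle cyclins lie below 0, with the line of CCND3 crossing 0.

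Of the 7 roles, the cyclins of the cell cycle had the lowest median. On their brightest probe sets the 9 measured ones were all below 0, against 44.8% of all measured genes, and their median was -0.59. CCND3 was at 0.074 under median scaling, and CCND2 was at 0.028 with the mean over all probe sets. Both knock-down arrays lay below both empty-vector arrays for 8 of the 9, the exception being CCND3, against 31.2% of all measured genes. Relative to the median of all measured genes, all 9 lay below it under the deposited, quantile and median scalings. Markers of the labelled cell type also differed between the pools. The summed signal of the 9 markers was 63191 and 69168 in the knock-down pool against 54702 and 56141 with empty vector. Most of this sum came from 2 genes. ELANE read 29710 and 29476 in the knock-down pool against 21750.5 and 22949 with empty vector. LYZ read 25100 and 30525 in the knock-down pool against 27356 and 27533 with empty vector. Single markers went further than the sum. Of the 7 measured, 4 were higher at 1.5-fold, against 8.51% of all measured genes: CD4 (0.84), ITGAX (0.90), CSF1R (0.69) and PTPRC (0.69). ELANE (0.41), LYZ (0.012) and SPI1 (-0.13) were not. MPO (-0.42) and FCGR1A (-0.43) were below the brightness limit in both pools. The part of these marker differences in the cyclin values was not tested. In bulk RNA fewer cycling cells cannot be told apart from less cyclin RNA per cycling cell.

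CCNF encodes cyclin F, the substrate-binding part of a ubiquitin ligase that peaks in G2 and does not activate a CDK. It read 976 and 774 in the knock-down pool against 1889.8 and 1769 with empty vector (875 ± 143 and 1829.5 ± 85.3, mean ± SD, n = 2 arrays). This was 2.08-fold lower, with array-by-array differences of -1.27 to -0.85. Every knock-down array lay well below every empty-vector array, but the knock-down arrays differed from each other, and the difference without knock-down replica 2 was -0.89, short of 2-fold. The second CCNF probe set was at -0.74.

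CCNB1, the main mitotic partner of CDK1, read 5861 and 5412 in the knock-down pool against 8929 and 9518 with empty vector (5636 ± 317 and 9223 ± 416), 1.63-fold lower. Its other probe set read 982 and 986 against 2309 and 2439.5, a log2 difference of -1.25 that passed the 2-fold rule. The probe sets shared their direction but differed in size by more than the spread between arrays. CCNB2, the other common B cyclin, read 6553 and 6594 in the knock-down pool against 10292 and 10467 with empty vector (6573 ± 28.9 and 10379.7 ± 124), 1.58-fold lower. The arrays of each pool nearly coincided, with differences of -0.67 to -0.64. With the mean over all CCNB2 probe sets the difference was -0.48, short of 1.5-fold.

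CCNA2 is the A cyclin of proliferating cells, which pairs with CDK2 in S phase and with CDK1 later. It read 4471 and 4249 in the knock-down pool against 6757 and 6371 with empty vector (4359.9 ± 157 and 6564 ± 273), a difference of -0.59 that only just met the 1.5-fold rule. Its second probe set gave -0.57. Leaving out knock-down replica 2 gave -0.55, and leaving out empty-vector replica 1 gave -0.55; CCNA2 missed 1.5-fold in both cases. It also missed it after quantile normalization (-0.56), under median scaling (-0.46), with a pseudocount 4 times larger and with the mean over both probe sets (each -0.58). CCNA1, the A cyclin of the germ line that is also expressed in myeloid leukaemia cells, read 1762 and 1707 in the knock-down pool against 2807 and 2937 with empty vector (1734 ± 38.7 and 2872 ± 91.8), 1.65-fold lower on its only probe set. The groups did not overlap for either A cyclin.

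**Figure D2:**
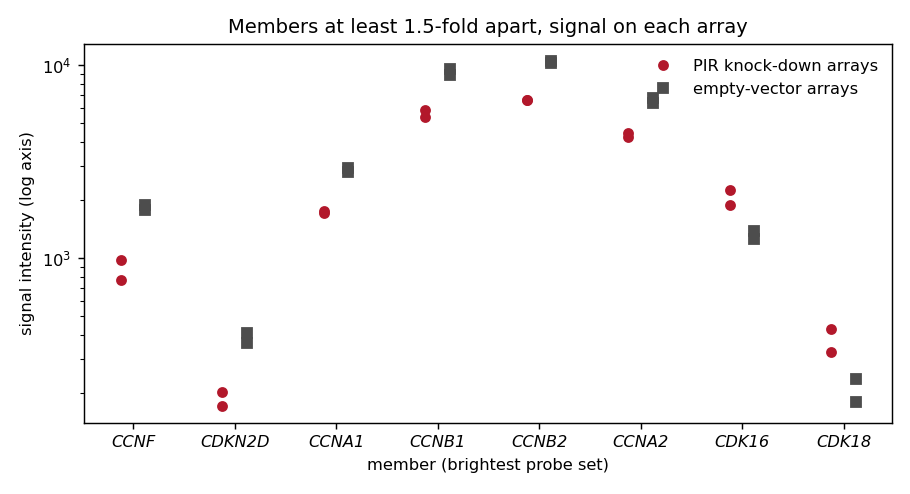
Signal on each of the 4 arrays (log axis) for the 8 members at least 1.5-fold apart, ordered by difference; circles are the 2 knock-down arrays and squares the 2 empty-vector arrays. The circles lie below the squares for the 6 lower members and above them for CDK16 and CDK18.

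The E cyclins, which carry cells from G1 into S phase, were lower by less. CCNE2 read 1902 and 2064 in the knock-down pool against 2954 and 2809 with empty vector, a difference of -0.54, and its second probe set gave -0.35. Without knock-down replica 2 CCNE2 was at -0.59 and passed 1.5-fold. CCNE1 read 619 and 702 in the knock-down pool against 892 and 898 with empty vector, a difference of -0.43. Its second probe set was not measured, and over the alternative settings CCNE1 ran from -0.52 to -0.073. Neither E cyclin reached 1.5-fold between the pools. Both knock-down arrays lay below both empty-vector arrays for each, as in 31.2% of all measured genes.

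The D cyclins, which link growth signals to CDK4 and CDK6, lay closer to the empty vector. CCND3 read 10394 and 9716 in the knock-down pool against 10073 and 10767 with empty vector, a difference of -0.051 within the spread between arrays. CCND2 read 2678 and 2585 in the knock-down pool against 3014 and 3233 with empty vector on its brightest probe set, a difference of -0.25, and its 3 dimmer probe sets gave 0.23, -0.14 and 0.26, so no direction can be given for the gene. CCND1 did not reach the brightness limit in either pool, with 42.7 and 20.3 against 66.4 and 31.6. CCNB3, a meiotic B cyclin, was not measured either.

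Promoters of the 5 lower cyclins are shown because genes of late cell cycle phases share promoter elements: CCAAT boxes, bound by NF-Y, and the CHR element, bound by the MuvB complex. The sequences are the 250 bases before the RefSeq start on GRCh38.p14, read 5′ to 3′ on the gene's strand, and capitals mark the matches described below. They lie at chr13:36431705-36431954 (plus strand) for CCNA1, chr4:121823884-121824133 (minus strand) for CCNA2, chr5:69166900-69167149 (plus strand) for CCNB1, chr15:59104896-59105145 (plus strand) for CCNB2 and chr16:2429197-2429446 (plus strand) for CCNF.
CCNA1: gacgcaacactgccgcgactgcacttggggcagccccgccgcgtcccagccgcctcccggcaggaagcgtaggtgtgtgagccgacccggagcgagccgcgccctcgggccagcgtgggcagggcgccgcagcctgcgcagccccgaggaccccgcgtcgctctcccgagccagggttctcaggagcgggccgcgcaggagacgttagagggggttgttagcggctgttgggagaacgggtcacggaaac
CCNA2: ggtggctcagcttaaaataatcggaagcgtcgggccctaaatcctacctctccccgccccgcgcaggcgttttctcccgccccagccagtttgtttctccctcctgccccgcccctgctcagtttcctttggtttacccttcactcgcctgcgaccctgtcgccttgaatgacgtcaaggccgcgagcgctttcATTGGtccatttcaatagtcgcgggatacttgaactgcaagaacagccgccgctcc
CCNB1: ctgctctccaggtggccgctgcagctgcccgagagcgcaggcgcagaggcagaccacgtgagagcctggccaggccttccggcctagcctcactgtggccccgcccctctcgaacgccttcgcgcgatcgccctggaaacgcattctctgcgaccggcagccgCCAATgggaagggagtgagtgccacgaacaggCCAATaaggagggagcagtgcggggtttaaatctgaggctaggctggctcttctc
CCNB2: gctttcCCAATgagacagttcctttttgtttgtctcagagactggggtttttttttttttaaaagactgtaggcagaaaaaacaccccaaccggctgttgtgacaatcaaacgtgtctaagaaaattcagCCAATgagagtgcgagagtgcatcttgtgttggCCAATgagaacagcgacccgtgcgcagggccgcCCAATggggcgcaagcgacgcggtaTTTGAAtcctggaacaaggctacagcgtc
CCNF: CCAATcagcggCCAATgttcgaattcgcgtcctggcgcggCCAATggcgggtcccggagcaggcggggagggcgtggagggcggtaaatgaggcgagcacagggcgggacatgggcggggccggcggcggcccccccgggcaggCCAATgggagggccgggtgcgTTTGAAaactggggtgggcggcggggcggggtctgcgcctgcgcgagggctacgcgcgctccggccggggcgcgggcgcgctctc

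In these windows CCNB2 held 4 CCAAT matches and a CHR match (TTTGAA) 29 to 24 bases before the start, and CCNF held 4 CCAAT matches and a CHR match 85 to 80 bases before it. CCNB1 held 2 CCAAT matches, at 87 to 83 and 55 to 51 bases, and CCNA2 held 1, on the other strand, at 56 to 52. CCNA1 held no match to any of the motifs. No window of the 5 matched the E2F letters, and CCNA2 and CCNB1 had no TTTGAA in the window on either strand. CDK1, described with the kinases, had TTTGAA and CCAAT in both of its windows and an E2F match, TTTCGCGC, in 1 of them.

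The table held 57 of the 64 members, with 81 windows, some of which overlap because a gene can have several starts. Motifs were searched on both strands as TTTGAA for CHR, CCAAT for the NF-Y box, and TTTCCCGC, TTTCGCGC, TTTGCCGC and TTTGGCGC for E2F, and the 1 overlap between matches in the members' windows was of a pair of CCAAT boxes in CCNJ. CHR was in 13.6% of member windows and 13.3% of all 35116 windows. CCAAT was in 38.3% and 32.0%, and both motifs stood together in 9.88% and 4.69%. In windows of the members lower at 1.5-fold, CCAAT was in 5 of 6 and CHR in 2 of 6. In those of the members higher at 1.5-fold, CCAAT was in 3 of 4 and CHR in 0 of 4. E2F letters were in 11.1% of member windows and 2.79% of all. The 7 measured members with CHR and CCAAT in 1 window were CCNB2, CCNC, CCNF, CDK1, CDK19, CDKN3 and E2F3. Of these 6 were below 0, against 24 of the 44 other measured members in the table and 44.8% of all measured genes. The median of the 7 was -0.54, beside -0.023 over those 44. CCNC, at 0.18, was the exception. Of the 8 measured members with the E2F letters, CDK1, CDK10, CDK19, E2F1, E2F2, E2F3, RBL1 and TFDP1, 6 were likewise below 0. Their median was -0.33, beside -0.023 over the 43 others, of which 24 were below 0. The splits share CDK1, CDK19 and E2F3. A match is a run of letters and not a binding site, no match says only that these letters are not in the window, and no test was made of either split. TTTGAA was the only form of CHR searched, and CCNA2 and CCNB1, which lack it, are among the 44.

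Of the 4 cell cycle kinases, CDK1 had the largest difference. CDK1, the mitotic kinase, read 7386 and 6355 in the knock-down pool against 9983 and 9994 with empty vector, a difference of -0.54 (1.46-fold lower), and the groups did not overlap. Of its 3 other measured probe sets, 2 gave -0.77 and -0.64 and passed the 1.5-fold rule. The dimmest set read 53 and 6.4 against 129 and 129, with only the empty-vector arrays above the brightness limit, and passed the 2-fold rule. Without knock-down replica 1 the brightest set was at -0.65 and passed 1.5-fold.

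CDK2, the partner of cyclins E and A, read 1408 and 1421 in the knock-down pool against 1606 and 1600.0 with empty vector, a difference of -0.18 that its second measured probe set matched at -0.17. The difference was small, and so was the spread between arrays. CDK4 read 10954 and 11248 in the knock-down pool against 11360.2 and 11629 with empty vector, a difference of -0.05, or 0.075 under median scaling. CDK6 read 6612 and 6314 in the knock-down pool against 5841 and 5999.8 with empty vector, a difference of 0.13, and its 5 other measured probe sets ran from 0.026 to 0.46. The kinases of the D cyclins differed little between the pools.

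The rule names 8 CDK inhibitors, of which 7 were members, 5 of them measured with a median of 0.11; the other one is not analysed here. CDKN2D, an INK4 inhibitor of CDK4 and CDK6, had the largest difference. It read 202 and 173 in the knock-down pool against 364 and 411 with empty vector (187 ± 20.8 and 388 ± 33.2), 1.98-fold lower, with array-by-array differences of -1.17 to -0.80. Both knock-down arrays lay far below both empty-vector arrays. Leaving out knock-down replica 1 gave -1.09, and leaving out empty-vector replica 1 gave -1.07, and both passed 2-fold. The call depends on this probe set and on the brightness limit: the second set was below the limit in both pools, at -0.23, and with the limit at the 75th percentile CDKN2D was not called. With the mean over both sets it was at -0.61.

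CDKN2A, which encodes an INK4 inhibitor and the ARF protein, read 3058 and 2797 in the knock-down pool against 2294 and 2871 with empty vector. The difference of 0.19 lay within the spread between arrays, and the second measured probe set gave -0.011. CDKN1B, the CIP/KIP inhibitor p27 of quiescent cells, read 6855 and 7184 in the knock-down pool against 6395 and 5860.2 with empty vector, a difference of 0.20 with no overlap. CDKN1A, the CIP/KIP inhibitor p21 of the DNA damage response, read 185 and 328 in the knock-down pool against 214 and 241 with empty vector. Its knock-down arrays lay on either side of the empty-vector arrays, and the difference of 0.11 became -0.27 without knock-down replica 2. CDKN3, a phosphatase that acts on CDKs and is itself expressed with the mitotic genes, read 5209 and 5212 in the knock-down pool against 6153 and 6009.7 with empty vector, a difference of -0.22, and -0.28 on its other probe set. CDKN2B and CDKN1C did not reach the limit in either pool.

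The 3 pocket proteins, which hold E2F factors inactive until CDKs phosphorylate them, went different ways. RBL1 (p107), itself an E2F target that accumulates in cycling cells, read 929 and 1055 in the knock-down pool against 1353 and 1393 with empty vector, a difference of -0.46 without overlap. Its other measured probe sets gave -0.17 and 0.057. RBL2 (p130), the pocket protein of quiescent cells, read 2553 and 3059 in the knock-down pool against 2539 and 2138 with empty vector, a difference of 0.26 with array-by-array differences of 0.0076 to 0.51, and its second probe set gave 0.54. RB1, the retinoblastoma gene, read 4566 and 5607 in the knock-down pool against 4833 and 4906 with empty vector on its brightest probe set, a difference of 0.055 that was -0.092 without knock-down replica 2. The second RB1 probe set read 736 and 982 against 517 and 600.0, a difference of 0.59. The sets for RB1 therefore disagreed in size.

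Of the 10 E2F and DP factors 9 were measured, and none reached 1.5-fold. The difference was negative in 5 and positive in 4, and 44.8% of all measured genes were negative. Their median was -0.098, and 0.021 under median scaling. E2F3, an activator of S phase genes, read 1326 and 1247 in the knock-down pool against 1807 and 1729 with empty vector, a difference of -0.45, but its other probe set gave -0.036. E2F8, an atypical repressor that is expressed late in S phase, read 3134 and 3187 in the knock-down pool against 4031 and 4006 with empty vector, a difference of -0.34 on its only probe set. In both genes the groups did not overlap. E2F1, the first activator of the family, read 402 and 621 in the knock-down pool against 674 and 506 with empty vector, so the pools overlapped; the difference of -0.22 was 0.086 without knock-down replica 1. E2F2, the other activator, read 1262 and 1113 in the knock-down pool against 1291 and 1322 with empty vector, a difference of -0.14, and its 3 measured sets ran from -0.15 to 0.20.

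The 3 repressors that are not atypical, E2F4, E2F5 and E2F6, had smaller differences than E2F8. E2F4, the main partner of the pocket proteins in quiescent cells, read 1496 and 1456 in the knock-down pool against 1444 and 1309 with empty vector, a difference of 0.10, and its second probe set gave -0.015. E2F5 read 328 and 262 in the knock-down pool against 363 and 274 with empty vector and overlapped between pools; its difference of -0.098 turned positive with knock-down replica 2 left out (0.055), with empty-vector replica 1 left out (0.095) and under median scaling (0.021). E2F6, which represses without a pocket protein, was at 0.076, and E2F7 was below the brightness limit in both pools.

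The DP proteins, obligate partners of the E2Fs, differed from each other. TFDP1 read 14021 and 13694 in the knock-down pool against 13078 and 13884 with empty vector, a difference of 0.04 that was negative after quantile normalization (-0.013). TFDP2 read 589 and 556 in the knock-down pool against 420.2 and 402 with empty vector, a difference of 0.46, the highest among these factors. Its second measured probe set was at 0.64 and passed the 1.5-fold rule, so both sets were higher in the knock-down pool.

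Cyclins of transcription and other cyclins had a median of -0.030 over 13 measured genes, 0.094 under median scaling, and none reached 1.5-fold. The median lay below that of all measured genes under either scaling. CCNG1, a stress-induced cyclin that binds protein phosphatase 2A, read 8006 and 8124 in the knock-down pool against 5882 and 5885 with empty vector, a difference of 0.45 with almost no spread between arrays. CCNK, the partner of CDK12 and CDK13, read 2683 and 2605 in the knock-down pool against 1893 and 2068 with empty vector, a difference of 0.41. On the brightest probe sets CCNG1 and CCNK had the largest positive values of the group. The second CCNK probe set was not measured, and over the alternative settings CCNK ran from 0.15 to 0.54. CCNI and CCNC, a Mediator cyclin, were at 0.29 and 0.18, without overlap between pools, and the sets of CCNI ran up to 0.48.

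The lowest of this group were CCNT2, a partner of CDK9, at -0.37 and CCNL2, a splicing-associated cyclin, at -0.34. Their probe sets spread widely, from -0.56 to 0.023 for CCNT2 and from -0.70 to -0.047 for CCNL2, whose lowest set read above the limit only with empty vector. CCNJ, CCNL1, CCNT1 and CCNY had differences from -0.29 to -0.11, and CCNH (of the CDK-activating kinase), CCNG2 and CCNQ lay between -0.03 and 0.024. CCNO and CCNP were not measured.

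CDKs outside the cell cycle set held both higher members. Their median was -0.015 over 13 measured genes and 0.11 under median scaling, below that of all measured genes in both cases. CDK18, a PCTAIRE kinase, read 329 and 432 in the knock-down pool against 180.1 and 237 with empty vector (380.3 ± 72.7 and 209 ± 40.2), 1.76-fold higher on its only probe set. The groups did not overlap, but the array-by-array differences of 0.44 to 1.18 leave the size imprecise. CDK16, another PCTAIRE kinase, read 2243 and 1889.5 in the knock-down pool against 1255 and 1391 with empty vector (2066 ± 249.9 and 1323 ± 96), 1.55-fold higher. Its other probe sets disagreed, at 0.87 and 0.059. The brightest set was at 0.51 with knock-down replica 1 left out and at 0.56 with empty-vector replica 1 left out, and CDK16 missed 1.5-fold in both cases. CDK17, the remaining PCTAIRE kinase, was at 0.32, without overlap, and -0.0057 on a dimmer probe set.

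The lowest of these kinases were CDK19 and CDK12. CDK19, a Mediator kinase, read 605 and 600.4 in the knock-down pool against 914 and 872 with empty vector, a difference of -0.55, with -0.48 on its second measured probe set. It passed 1.5-fold without empty-vector replica 2 (-0.59) and after quantile normalization (-0.60). Over all the alternative settings CDK19 ran from -0.60 to -0.12. Its close relative CDK8 was at -0.023, with up to 0.36 on its other sets. CDK12, which phosphorylates RNA polymerase II during elongation, read 1151 and 1123 in the knock-down pool against 1590.1 and 1482 with empty vector, a difference of -0.43. Of its 5 other measured probe sets, 4 ran from -0.48 to -0.32 and a dim one was at 0.17. CDK14 and CDK13 were at -0.29 and -0.25, and CDK5, CDK7, CDK9, CDK10 and CDK20 lay between -0.10 and 0.11. CDK15 was not measured.

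Probe sets of the same gene read different parts of its transcripts, and they were set against each other. Of the 34 members with 2 or more measured probe sets, 19 had the same sign on all of them, and in 10 the sets lay 0.5 or more apart. Counting only sets above the brightness limit in both pools, 7 of 33 members had such a spread: CCNB1, CCND2, CCNT2, CDK10, CDK16, RB1 and RBL1. The sets of CCNB1, CDK16 and RB1 agreed in sign, and those of CDK10 did not, with -0.61 on the lowest set against 0.11 on the brightest. The 3 CDK1 sets above the limit in both pools lay within 0.22 of each other. All measured sets had a negative difference for CCNA2, CCNB1, CCNE2, CCNF and CDK1. The same held for CCNG2, CCNL1, CCNL2, CDK2, CDK19, CDKN3, E2F1 and E2F3. All had a positive difference for CCNI, CDK6, CDK16, RB1, RBL2 and TFDP2. Of 116 measured member probe sets, 13 were lower at 1.5-fold, against 6.28% of all 18983 measured probe sets, and 4 were higher, against 8.46%. At 2-fold 3 were lower, against 1.41%, 1 each for CCNF, CCNB1 and CDK1, the last read above the limit only with empty vector.

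**Figure D3:**
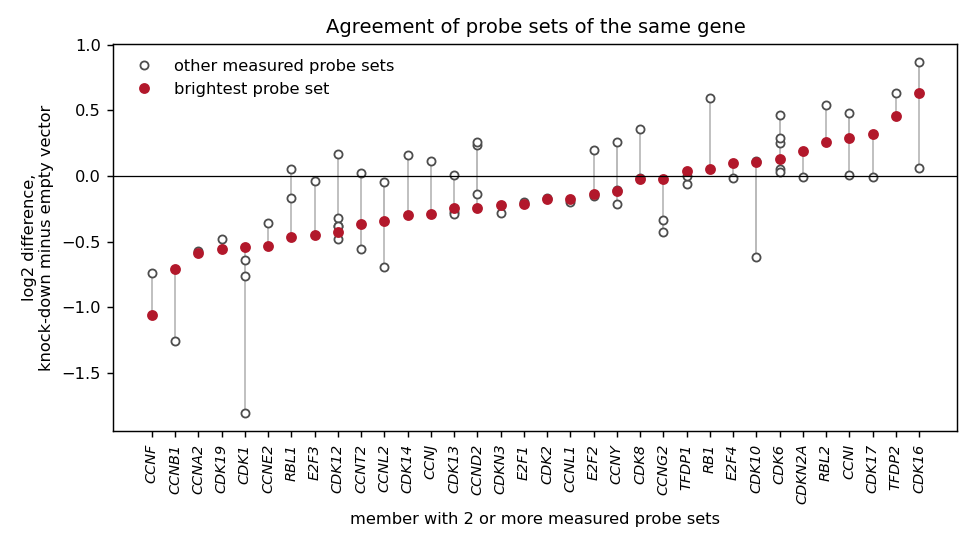
Log2 difference (knock-down minus empty vector) of every measured probe set for the 34 members with 2 or more, ordered by the brightest set; filled circles are the brightest set and open circles the others. Sets of CCNA2 and CDK2 coincide, and those of CDK16 and CDK10 spread by more than 0.7; the lowest CDK1 set was below the brightness limit in the knock-down pool.

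Other genes of the pathway were counted by the same rules in 5 lists chosen with earlier results of these data known. Of 61 listed genes 59 had a probe set and 58 were measured; 10 were lower and 2 higher at 1.5-fold, against the background of 4.93% and 8.51%, and 1 was higher at 2-fold. Under median scaling 2 of them were lower at 1.5-fold, CDK5R1 and EZH2, and the same 2 higher; the 8 other lower genes missed the rule there. Their median was -0.18, and -0.055 under median scaling. Of the 58, 40 had a negative difference, against 44.8% of all measured genes. Genes that regulate CDKs by phosphorylation or as adaptors had a median of -0.17, with 9 of 10 negative and 1 lower at 1.5-fold. This was CDK5R1, the activator of CDK5, at -0.71 (236 and 222 against 423 and 353). WEE1, the inhibitory kinase of CDK1, was at -0.31 on its brightest set and at 0.16 on its second, with no overlap on either, so no direction can be given. CDC25A, CDC25B and CDC25C, the phosphatases that oppose it, were at -0.14, -0.16 and -0.18, with overlap between pools for CDC25A and CDC25C. The other CDC25A sets were at -0.41 and 0.072.

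Genes for the degradation of cyclins and inhibitors had 4 of 14 members lower at 1.5-fold, against 4.93% of all measured genes, with a median of -0.17. The 4 belong to the mitotic destruction system: CDC20, an activator of the anaphase-promoting complex, at -0.64 (3282 and 3197 against 5029 and 5105), its ubiquitin-conjugating enzymes UBE2C and UBE2S at -0.64 and -0.63, and its inhibitor FBXO5 at -0.64 and, on a second probe set, -0.30. SKP2, which targets CDKN1B for destruction, was at -0.39 on its brightest set but at -0.041 and -0.078 on the others, whose arrays overlapped between pools. FZR1, the anaphase-promoting complex activator of G1, had 4 measured sets from -0.40 to 0.23. CDC27 and ANAPC5, subunits of that complex in the same list, did not reach 1.5-fold. CDC27 was at -0.27 with overlap between pools, and its other sets were at 0.23, 0.12 and -0.058. ANAPC5 was at -0.17, and its other sets ran from -0.12 to 0.089. The list also holds CCNDBP1, a cyclin-binding protein, at 0.37.

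Of 8 genes listed for MuvB, B-MYB and FOXM1, 1 was lower and 1 higher at 1.5-fold, against 4.93% and 8.51% of all measured genes. The list also holds MYB, which is none of these, at 0.27. FOXM1, a driver of G2 and M genes, was at -0.61 (1314 and 1265 against 1962 and 2007), and MYBL2, which encodes B-MYB, at -0.47. LIN37, a MuvB subunit needed for repression, was at 0.79 (820.2 and 826 against 499 and 438). The E2F target genes of S phase had a median of -0.27 over 16 measured members. Of these, 12 were negative, against 44.8% of all measured genes, and 3 were lower at 1.5-fold, against 4.93%. EZH2, the Polycomb methyltransferase, was at -0.92 (1679 and 1812 against 3352 and 3287). RRM2, a ribonucleotide reductase subunit, was at -0.70 on its brightest probe set and at -1.43 on the second, which passed the 2-fold rule. SLBP, the histone mRNA binding protein, was at -0.63. UNG, PCNA and MCM3 went the other way, at 0.20, 0.16 and 0.13, as did GMNN at 0.065, where the pools overlapped. CDT1 was at -0.30 on its brightest set and at 0.54 on its second, with no overlap on either, so no direction can be given.

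Genes upstream of cyclin D and the inhibitors had a median of 0.045, beside 0.046 for all measured genes. Of the 10, 5 were negative, against 44.8% of all measured genes. FOS, an AP-1 subunit, was the member higher at 2-fold, at 1.10 (1097 and 1081 against 486 and 514). MDM2, a ubiquitin ligase, was lower at 1.5-fold, at -0.67, and -0.91 on its other measured probe set. MYC, which favours cyclin D and E2F expression, was at 0.28, and CEBPA, a myeloid factor that restrains E2F, at 0.26.

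**Figure D4:**
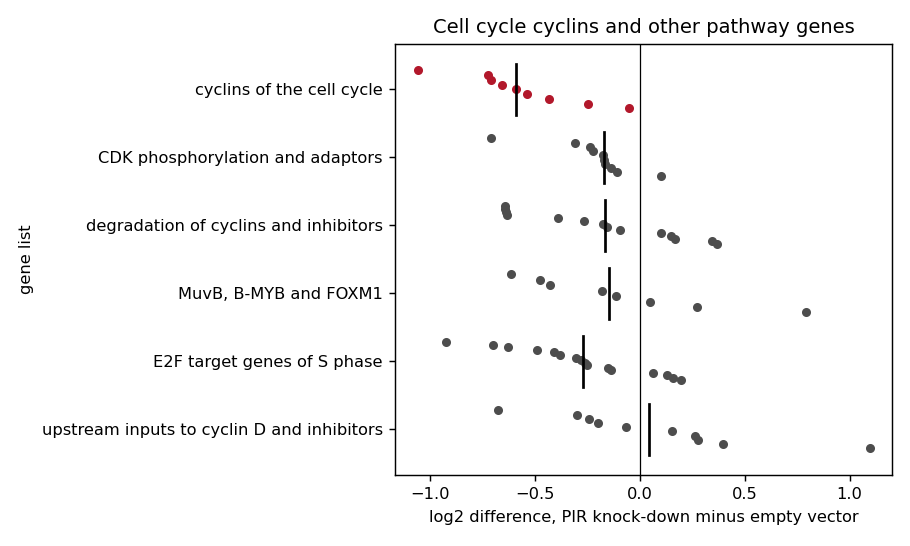
Log2 difference (knock-down minus empty vector) of each measured gene in the cell cycle cyclins (red) and in the 5 lists of other pathway genes (grey); black bars are medians. The cyclin median of -0.59 lies lowest and the list of upstream inputs, at 0.045, highest.

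The 8 members below the brightness limit in both pools were CCNB3, CCND1, CCNO, CCNP, CDK15, CDKN1C, CDKN2B and E2F7. Their signals did not exceed 124 on any array, and no fold is given for them.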

How the data were processed

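The RNA was prepared with TRIzol and then RNeasy columns, per the labels' protocols. The submitters' processing notes name GCOS, without version or settings. The deposited values are signal intensities, 1 for each probe set on each array, which the authors scaled: the mean after trimming 2% of probe sets at each end was 500.07 on every array. Detection calls were not used here.

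The members, lists, size rules and motifs were chosen with earlier results of these data known. The arrays of each pool were averaged and count as 1 sample, so no p-value is given. Named members are those at least 1.5-fold apart, a set of core members, and up to 2 further members per role with the largest difference, 35 genes in all; other members are given by their difference. Member symbols equalled those of the RefSeq gene table in 64 of 64 cases. Promoters are from RefSeq (GRCh38.p14); CCND1, CCND2, CCNE2, CDK2, CDKN1C, E2F5 and E2F8 had no entry. Size rules were tested on simulated data, with noise set by the spread between arrays of the same pool. Variation between cultures was not part of the simulation. Alternatives were pseudocount, brightness limit, scaling, margin, array pairing, choice of probe set and each array left out. Python 3.11.15, pandas 2.3.3, numpy 2.4.6 and matplotlib 3.10.9 were used.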

Additional observations from a re-analysis of the deposited data

How the results depend on the processing

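Under 14 alternative settings the counts moved as follows. Members lower at 2-fold numbered 1 as reported. There were 2 without a pseudocount, 2 after quantile normalization and 2 with probe sets ending in neither _x_at nor _s_at, and 0 under median scaling and 0 with the mean over all probe sets. Members higher at 1.5-fold numbered 1 with the brightness limit at the 75th percentile and 1 with the mean over all probe sets, against 2. Members lower at 1.5-fold numbered 3 under median scaling, against 6. The median difference of the members, -0.10, was -0.13 after quantile normalization, -0.034 with the mean over all probe sets and 0.021 under median scaling. That scaling moved the share of negative members from 62.5% to 44.6%. Before it, 44.8% of all measured genes were negative. With and without it, 38 members lay below the median of all measured genes.

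Leaving out 1 array at a time gave 0 to 2 members lower and 0 higher at 2-fold, 1 to 2 higher and 5 to 7 lower at 1.5-fold, and a median from -0.11 to -0.075. Replica numbers pair no samples here, since each pool is 1 sample. The replicate block, a comparison of same-numbered arrays only, gave the same counts, 0 higher and 1 lower at 2-fold, 2 higher and 6 lower at 1.5-fold, and a median of -0.10. Of 490 values of the 35 named members under these settings, 477 kept their sign; the other 13 fell in 9 members, all without a call. The number of arrays limits the precision of every value.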
